A study of Mus musculus with 81 samples.

Results

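The 31 genes described here act in mitochondrial and peroxisomal fatty acid oxidation. They were listed by name, and each was read from the brightest probe set that carries its symbol and no other. Of the 31 listed genes, 29 were measured in this way, out of 22180 genes on the array. Cpt1b and Acot8 appear only on probe sets assigned to several genes and were not analysed here. The 29 genes were divided by role into 3 of the carnitine shuttle, 6 acyl-CoA dehydrogenases, 5 enzymes of the later mitochondrial steps, 4 enzymes for unsaturated fatty acids, 8 peroxisomal genes and 3 of electron transfer. The level of 26 of them lay above the median level of all genes, and Acad10, Acaa1a and Acaa1b lay below it.

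The study hybridised 81 heart RNA pools of male mice on high fat or chow diet to arrays, with 1 pool for each strain and diet. High fat feeding was represented by 39 pools: 37 BXD strains, which are inbred lines descended from a C57BL/6J by DBA/2J cross, and the parents DBA/2J and C57BL/6J. Chow was represented by 42 pools: the same 39 strains and 3 further BXD strains, which entered only the unpaired alternative. All animals were 29 weeks old and fasted overnight, on both diets, and each pool combined about 5 animals, so variation between animals was not measured. The diet was taken from each sample's own label, because the feeding text attached to all samples describes chow alone. Values are in units of a rescaled scale that gives each array the mean 8 and the SD 2. A difference of 1 unit thus equals 0.5 array SDs, and differences in units are not fold changes.

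Fatty acids supply much of the energy of the heart. Long chains cross the inner mitochondrial membrane as carnitine esters, and each cycle of β-oxidation then removes acetyl-CoA through a dehydrogenase, a hydratase, a hydroxyacyl dehydrogenase and a thiolase, with electrons passing through electron transfer flavoprotein to the respiratory chain. Peroxisomes shorten very long, branched and dicarboxylic chains by a parallel set of enzymes, and many genes of both systems are targets of the nuclear receptor PPARα, which is active in fasting.

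The promoters of Hadha and Hadhb are shown because these genes encode the α and β subunits of 1 enzyme and had different diet results. Both windows hold the 250 bases before the transcription start in RefSeq (GRCm38.p6), written 5′ to 3′ on the strand of the gene. Hadha lies at chr5:30154981-30155230 on the minus strand and Hadhb at chr5:30155003-30155252 on the plus strand. The genes are transcribed away from each other, their starts are 273 bases apart, and the windows share 228 bases, printed in capitals.
Hadha: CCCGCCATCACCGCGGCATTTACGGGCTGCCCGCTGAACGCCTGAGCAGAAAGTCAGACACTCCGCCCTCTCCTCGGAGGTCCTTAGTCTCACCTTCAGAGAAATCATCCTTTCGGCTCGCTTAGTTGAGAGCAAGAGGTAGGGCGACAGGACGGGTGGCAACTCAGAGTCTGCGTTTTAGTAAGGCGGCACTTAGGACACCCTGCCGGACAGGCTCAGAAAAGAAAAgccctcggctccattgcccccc
Hadhb: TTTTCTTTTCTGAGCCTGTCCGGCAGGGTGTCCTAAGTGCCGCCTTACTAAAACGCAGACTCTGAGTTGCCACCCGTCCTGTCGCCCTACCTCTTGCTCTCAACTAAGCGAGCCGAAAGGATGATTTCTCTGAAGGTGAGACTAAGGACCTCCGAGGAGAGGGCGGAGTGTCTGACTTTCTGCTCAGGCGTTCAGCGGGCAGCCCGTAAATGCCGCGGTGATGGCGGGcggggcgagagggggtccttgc

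Promoter windows were found for 26 of the 31 listed genes. The core motif of nuclear receptors, AGGTCA, was searched on both strands and occurred in 4 of the 26 windows (15.4%), against 14% of 32851 windows of all genes. These 4 genes were Acadm, Acadvl, Cpt1a and Echs1. The Cpt1a window, at chr19:3323051-3323300 on the plus strand, is shown because Cpt1a followed the fasting genes most closely, with the motif in capitals, which reads AGGTCA on the opposite strand.
Cpt1a: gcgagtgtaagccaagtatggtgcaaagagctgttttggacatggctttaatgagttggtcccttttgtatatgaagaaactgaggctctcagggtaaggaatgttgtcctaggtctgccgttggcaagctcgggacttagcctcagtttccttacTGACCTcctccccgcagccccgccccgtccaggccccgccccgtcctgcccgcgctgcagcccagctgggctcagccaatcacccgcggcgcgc
The direct repeat of this motif with a spacing of 1 base (AGGNCA, any 1 base and AGGNCA again, the kind of site that PPARα binds as a dimer) was found in 0 of the 26 windows and in 0.338% of all windows. The longer motif TNAAGGTCA, bound by estrogen-related receptors, was found in 0 of the 26 and in 1.14% of all. These windows are short, and a match or its absence says nothing about binding.

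Across the series, array medians lay between 7.62 and 7.75 and pairs of arrays correlated at r of 0.969 to 0.992. The arrays with the lowest mean correlation were high fat BXD48, chow BXD96 and high fat BXD45. Many small diet differences passed the test: 9985 of 22180 genes (45.0%) had an adjusted p under 0.05 in limma with strain as a block. The same test was passed by 37 of 92 ERCC control probe sets (40.2%), which match no mouse gene. The 95th percentile of the absolute difference over these controls was 0.247 units. Because each array is scaled to 1 mean and SD, a difference is relative to the rest of that array, and in whole tissue fewer cells of a type and less RNA per cell cannot be told apart.

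Diet calls among the fatty acid oxidation genes went in both directions, at shares close to those of all genes. On high fat diet 7 of the 29 genes rose, against a background of 23.8% of all genes, and 6 fell, against 21.2%, while 16 did not pass. The median difference of high fat minus chow was 0.00949 units over the 29 genes and 0.00526 units over all genes. Cpt2, Acadvl, Acadl, Acads, Decr1, Decr2 and Amacr rose, and Hadhb, Echs1, Acaa1a, Ehhadh, Phyh and Hacl1 fell. Differences among the 13 genes ranged in size from 0.0690 to 0.504 units, and only Hadhb exceeded the 95th percentile of the ERCC controls. In all genes, 9.07% passed the test and exceeded that limit. The 16 genes that did not pass had 95% intervals reaching 0.0420 to 0.114 units to either side of their mean.

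**Figure D1:**
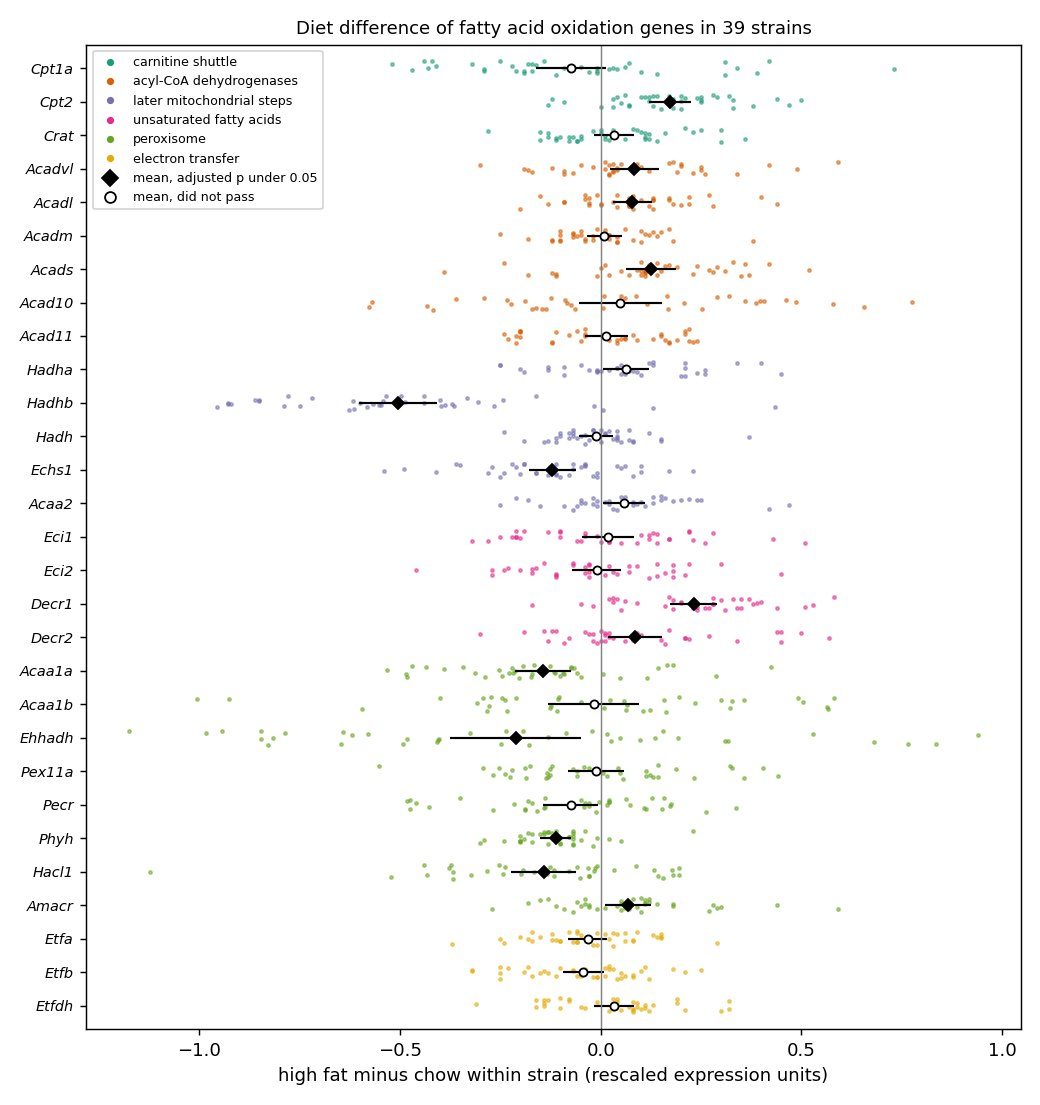
Difference of high fat minus chow within each of 39 strains (coloured points, rescaled units) for the 29 genes, with the mean and 95% interval in black. Filled diamonds mark the 13 genes with an adjusted p under 0.05, and Hadhb at −0.504 lies farthest from 0.

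Some markers of other cells and of the heart muscle also passed the diet test, where 23.8% of all genes rose and 21.2% fell. Of 8 cardiomyocyte markers, 5 fell and 0 rose, and their mean, far above the median level of all genes of 8.18, ranged from 14.70 to 15.13 units on high fat and from 14.74 to 15.17 on chow. Of 5 brown adipocyte markers, 2 rose, Cidea (0.276 units) and Zic1 (0.344 units), while Ucp1 had a difference of 0.367 units that did not pass. The list did not move in 1 direction: its lowest difference was −0.125 units, which did not pass either. The brown adipocyte mean ranged from 7.51 to 8.49 units on high fat and from 7.43 to 8.73 on chow. White adipocyte markers Adipoq and Adig fell, 2 of 6, with list means of 7.24 to 8.54 units on high fat and 7.32 to 8.63 on chow. The other 4 did not pass, and the list did not move in 1 direction. Its median difference was 0.0599 units and its highest 0.117 units. Among macrophage markers 2 of 4 rose, among fibroblast markers 2 of 3, among endothelial markers 1 of 3 and among skeletal muscle markers 1 of 4. No marker of the atrium passed in limma (0 of 5, and 0 at an unadjusted p under 0.05), but pools differed widely, from 8.74 to 14.18 units on high fat and from 8.75 to 14.09 on chow. When the atrial and adipocyte marker means entered the fit, 3 of the 29 genes were higher on high fat (Cpt2, Acadl and Decr1) and 5 were lower, with 28.1% of all genes called. The cardiomyocyte markers did not enter this fit, and their part in the diet results was not tested. The scale has no true zero.

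In the carnitine shuttle, Cpt2 rose and the other 2 measured genes did not pass, where 23.8% of all genes rose and 21.2% fell. Cpt2, the inner membrane transferase that returns acyl groups from carnitine to CoA, had a lowest, median and highest value of 13.53, 13.87 and 14.14 units on high fat, against 13.38, 13.70 and 13.92 units on chow. The ranges overlapped, but 11 high fat arrays lay above the highest chow array. The mean was 13.86 ± 0.138 units on high fat and 13.69 ± 0.136 units on chow (SD, n = 39 each). Cpt2 was higher by 0.172 ± 0.0259 units (SE; 95% interval 0.120 to 0.224, limma adjusted p = 6.76e-07), in 35 of 39 strains. Cpt1a, the outer membrane transferase of liver that the heart expresses beside the muscle form, spanned 11.59 to 12.34 units on high fat and 11.59 to 12.50 units on chow. Its difference of −0.0729 ± 0.0433 units did not pass (limma adjusted p = 0.170). Crat, which makes carnitine esters of acetyl-CoA and other short acyl groups, differed by 0.0334 ± 0.0252 units (95% interval −0.0174 to 0.0843, limma adjusted p = 0.287).

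Of the 6 acyl-CoA dehydrogenases, 3 rose and 0 fell, where 23.8% of all genes rose and 21.2% fell. Their median difference was 0.0640 units. Acads, which acts on short chains, had a lowest, median and highest value of 12.51, 12.91 and 13.19 units on high fat, against 12.33, 12.79 and 13.15 units on chow. Its ranges overlapped over most of their length, and it was higher by 0.125 ± 0.0310 units in 32 of 39 strains (limma adjusted p = 0.000960). Acadvl, for very long chains, was at 12.03, 12.29 and 12.74 units on high fat and at 11.93, 12.20 and 12.52 units on chow, a difference of 0.0842 ± 0.0306 units in the direction of high fat in 29 strains (limma adjusted p = 0.0221). Acadl, for long chains, was at 13.89, 14.14 and 14.62 units on high fat and at 13.82, 14.12 and 14.35 units on chow. Acadl rose by 0.0791 ± 0.0244 units (limma adjusted p = 0.00733), with 6 high fat arrays above the highest chow array. Acadm, for medium chains, gave the narrow null result of 0.00949 ± 0.0218 units, with a 95% interval of −0.0345 to 0.0535 (limma adjusted p = 0.750). Acad10 and Acad11, related enzymes of less settled role, differed by 0.0488 and 0.0137 units and did not pass. The call for Acadvl was lost when the marker means entered the fit (0.0691 units, limma adjusted p = 0.237), as was that for Acads (0.102 units, adjusted p = 0.0552).

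The later mitochondrial steps held the largest diet difference of the 29 genes. Hadhb, the thiolase subunit of the mitochondrial trifunctional protein, had a lowest, median and highest value of 8.71, 9.08 and 9.71 units on high fat, against 9.24, 9.55 and 9.91 units on chow. Of 39 high fat arrays, 33 lay below the lowest chow array. Mean levels were 9.07 ± 0.213 units on high fat and 9.57 ± 0.193 units on chow (SD, n = 39 each). Hadhb fell by 0.504 ± 0.0479 units (SE; 95% interval −0.601 to −0.407, limma adjusted p = 1.79e-11). It was lower in 36 strains and higher in BXD68 (by 0.434 units), BXD80 (0.131) and BXD95 (0.00600). It was read from 1 probe set, so no second probe set could be set beside it. The mean level of this probe set was 9.33 units, against 15.17 units for Hadha. Whether it follows the whole Hadhb transcript was not tested.

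Hadha, the subunit that holds the hydratase and hydroxyacyl dehydrogenase of the same complex, did not share this difference. It had a lowest, median and highest value of 14.89, 15.18 and 15.61 units on high fat, against 14.84, 15.15 and 15.40 units on chow. Its difference was 0.0629 ± 0.0281 units (95% interval 0.00622 to 0.120, limma adjusted p = 0.0642), with 26 strains higher, so the intervals of the subunits did not overlap. The strain means of Hadha and Hadhb over both diets were nevertheless positively related. Neither gene passed the test for strain (limma adjusted p = 0.307 for Hadha and 0.830 for Hadhb), so these means also carry differences between single pools. Over 39 strain means, Pearson's r was 0.523 (permutation p = 0.00059, 0.000983 adjusted over 5 pairs) and Spearman's rho 0.459 (permutation p = 0.00345, adjusted 0.00575). Without BXD48 and BXD71, r was 0.497, and it was 0.500 within high fat arrays, 0.446 within chow arrays and 0.444 for the diet differences.

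**Figure D2:**
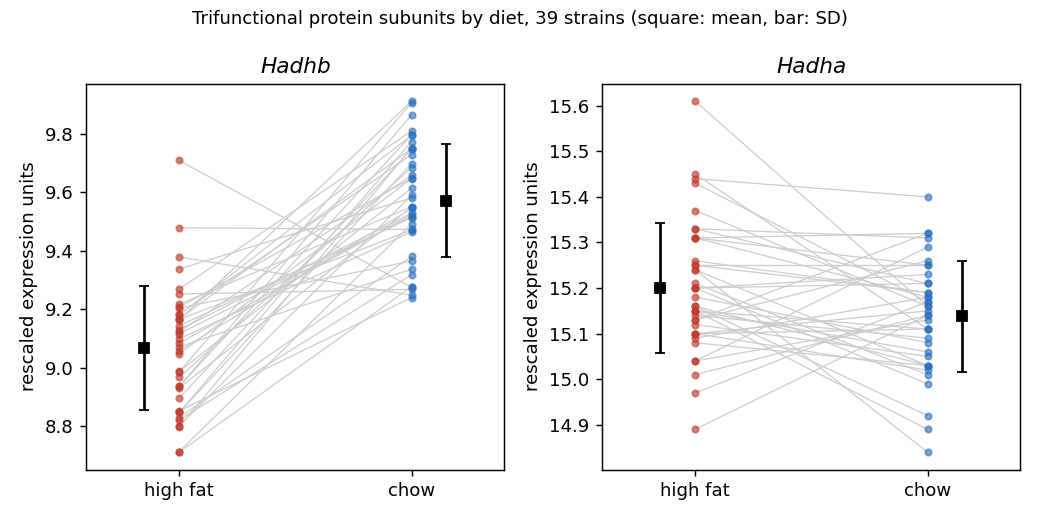
Level of Hadhb and Hadha (rescaled units) in the 39 strains on high fat and chow, with lines joining the pools of a strain and squares and bars for the mean and SD. Hadhb was lower on high fat in 36 strains, and Hadha was higher in 26.

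Echs1, the short-chain enoyl-CoA hydratase, also fell. Its lowest, median and highest values were 12.28, 12.68 and 12.96 units on high fat, against 12.43, 12.79 and 13.12 units on chow. The ranges overlapped, and Echs1 fell by 0.121 ± 0.0289 units, with 31 of 39 strains lower (limma adjusted p = 0.000698). Hadh, the hydroxyacyl dehydrogenase for medium and short chains, differed by −0.0109 ± 0.0208 units (limma adjusted p = 0.698). Acaa2, the mitochondrial thiolase, differed by 0.0573 ± 0.0260 units (limma adjusted p = 0.0688).

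Among the enzymes for unsaturated fatty acids, Decr1 and Decr2 rose and Eci1 and Eci2 did not pass. Of all genes, 23.8% rose and 21.2% fell. Decr1, the mitochondrial 2,4-dienoyl-CoA reductase, had a lowest, median and highest value of 12.21, 12.66 and 13.10 units on high fat, against 11.97, 12.41 and 12.74 units on chow. A total of 8 high fat arrays lay above the highest chow array. Decr1 averaged 12.63 ± 0.196 units on high fat and 12.40 ± 0.166 units on chow (SD, n = 39 each). It was higher by 0.232 ± 0.0285 units (SE; 95% interval 0.174 to 0.289, limma adjusted p = 1.03e-08), in 36 of 39 strains. Decr2, its peroxisomal relative, rose by 0.0859 ± 0.0330 units with 24 strains higher (limma adjusted p = 0.0306). That call was lost with the marker means in the fit, when the difference was 0.0127 units (limma adjusted p = 0.868). Eci1 and Eci2, which shift double bonds into the position the pathway uses, differed by 0.0183 ± 0.0320 and −0.00959 ± 0.0301 units.

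In the peroxisome 4 of 8 genes fell, 1 rose and 3 did not pass, where 21.2% of all genes fell and 23.8% rose. The median difference was −0.0933 units, and no called gene of this step exceeded the 0.247 units of the ERCC controls. Phyh, which starts the α-oxidation of phytanic acid, was at 12.70, 12.92 and 13.12 units (lowest, median, highest) on high fat and at 12.82, 13.04 and 13.15 units on chow. A total of 5 high fat arrays lay below the lowest chow array. Phyh fell by 0.112 ± 0.0192 units, with 36 of 39 strains lower (limma adjusted p = 7.13e-06), and its second probe set fell by 0.125 ± 0.0432 units (limma adjusted p = 0.0201). Hacl1, the lyase that follows Phyh in α-oxidation, was at 8.49, 8.83 and 9.11 units on high fat and at 8.53, 8.94 and 9.77 units on chow. It fell by 0.142 ± 0.0402 units, with 30 strains lower (limma adjusted p = 0.00360). Acaa1a, a peroxisomal thiolase, was at 7.70, 8.07 and 8.59 units on high fat and at 7.82, 8.26 and 8.60 units on chow. Nearly the whole range of Acaa1a was shared by the diets, and it fell by 0.144 ± 0.0346 units, with 31 strains lower (limma adjusted p = 0.000696).

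Ehhadh, the peroxisomal bifunctional hydratase and dehydrogenase, varied more between pools than the other called genes. Its lowest, median and highest values were 8.34, 9.16 and 9.96 units on high fat, against 8.59, 9.36 and 10.15 units on chow. The ranges overlapped almost completely, and Ehhadh fell by 0.212 ± 0.0813 units, with 25 strains lower and 14 higher (limma adjusted p = 0.0306). Amacr, the racemase for branched chains, rose by 0.0690 ± 0.0283 units, with 25 strains higher (limma adjusted p = 0.0428), the smallest difference that passed. The calls for Ehhadh and Amacr were lost with the marker means in the fit (limma adjusted p = 0.159 and 0.220), while the differences were then −0.229 and 0.0696 units, about as large as without them. They were also lost without BXD45, BXD48 and BXD96 (0.0926 and 0.0608), as was that for Acadvl (0.0979). Pecr, a reductase of trans-2-enoyl-CoA, Acaa1b, the second thiolase gene, and Pex11a, which acts in peroxisome division, differed by −0.0748, −0.0176 and −0.0111 units and did not pass.

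A chow pool held high values of several peroxisomal genes. BXD96 had the highest chow level of 5 of the 29 genes, namely Decr2, Acaa1a, Acaa1b, Pecr and Hacl1, all of the peroxisome. The same pool had the highest mean of the liver markers Alb, Apoa1, Ttr and Apoc3, 12.83 units, against a chow median of 9.61 and a second highest of 11.998 units in BXD62. Without BXD45, BXD48 and BXD96, Hacl1 still fell, by 0.107 units (limma adjusted p = 0.00780), and Acaa1a by 0.141 units (0.00135). In limma 0 of 4 liver markers passed the diet test, where 45.0% of all genes passed, and 1 had an unadjusted p under 0.05.

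Electron transfer did not pass the diet test in limma at any of its 3 genes, where 45.0% of all genes passed. Of the 3, 0 had an unadjusted p under 0.05. Etfa and Etfb, the subunits of electron transfer flavoprotein, differed by −0.0324 ± 0.0240 and −0.0432 ± 0.0250 units. Etfdh, the dehydrogenase that hands their electrons to ubiquinone, differed by 0.0331 ± 0.0247 units, with a 95% interval of −0.0168 to 0.0829. The means over each step moved with diet in different numbers of strains. The dehydrogenase mean was higher on high fat in 29 of 39 strains, that of unsaturated fat enzymes in 27 and that of the carnitine shuttle in 24. Electron transfer was higher in 17 strains, the peroxisomal mean in 10 and that of the later mitochondrial steps in 8. This last count rested on Hadhb: the mean of the other 4 later genes was higher in 16 strains and lower in 23, with a mean difference of −0.00284 units. The unsaturated fat mean held Decr1, higher in 36 strains, beside Decr2 in 24, Eci1 in 21 and Eci2 in 18. The carnitine mean held Cpt2, higher in 35 strains, beside Crat in 22 and Cpt1a in 13. Means without Decr1 or Cpt2 were not computed. Over all 29 genes the mean was higher in 18 strains and lower in 21.

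Genes of the same pathways outside the 29 gave 4 that rose, 16 that fell and 27 that did not pass, of 47, against 23.8% of all genes that rose and 21.2% that fell. The carnitine carrier Slc25a20, which exchanges acylcarnitine for carnitine across the inner membrane, rose by 0.173 ± 0.0335 units with 31 strains higher (limma adjusted p = 4.43e-05), and the mitochondrial thioesterase Acot2 rose by 0.151 units. Of 7 genes of fatty acid activation, 3 fell and 0 rose: Acss1, which activates acetate in mitochondria, by 0.193 ± 0.0331 units, Acsl4 by 0.130 units and the transporter Slc27a1 by 0.167 units. Of 8 other mitochondrial enzymes, 6 fell and 0 rose. They included Acad9, also an assembly factor of complex I, which fell by 0.158 ± 0.0270 units, and Hsd17b10, a short-chain hydroxyacyl dehydrogenase that also breaks down isoleucine, which fell by 0.136 ± 0.0225 units. The other 4 were Pcca, Pccb, Mcee and Mmut, which convert propionyl-CoA from odd chains and branched amino acids to succinyl-CoA. They fell by 0.0802, 0.096, 0.113 and 0.129 units. Of 11 regulators, 1 rose, the receptor gene Ppara, and 5 fell, among them Esrrg, an estrogen-related receptor, by 0.150 ± 0.0257 units. Of 13 other peroxisomal genes, 1 rose and 2 fell, with Acot3, a thioesterase, lower by 0.268 units.

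Strain levels differed at 12 of the 29 genes, and at 9 with the atrial and adipocyte marker means in the fit or without BXD45, BXD48 and BXD96. In the limma F test over 39 strains with 1 pool on each diet, 14.8% of all genes passed, and 23.5% of genes above the median level, the range in which 26 of the 29 lie. The intraclass correlation (ICC), the share of variance that pools of 1 strain have in common across diets, had a median of 0.388 over the 29 genes and 0.155 over all genes. Electron transfer passed at 3 of 3 genes and the unsaturated fat enzymes at 3 of 4. Passing genes numbered 1 of 3 in the carnitine shuttle, 2 of 6 among the dehydrogenases, 2 of 5 among the later mitochondrial steps and 1 of 8 in the peroxisome. The difference between steps was not tested.

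Hadh had the highest ICC of the 29, 0.672, with strain means of 15.09 units in BXD63 to 15.65 units in BXD66 (limma adjusted p = 0.000954). Acaa2 followed at 0.616, with strain means of 14.35 units in DBA/2J to 14.97 units in BXD48 (limma adjusted p = 0.000782). The ICC was 0.585 for Acadl (13.86 units in BXD70 to 14.40 units in BXD68), 0.564 for Decr1 (12.11 units in DBA/2J to 12.84 units in BXD48) and 0.553 for Eci2 (10.47 units in BXD43 to 11.06 units in BXD62). Etfb had 0.545, from 13.78 units in BXD98 to 14.42 units in BXD55. Strain order thus held across diets for Acadl and Decr1, which also rose with diet, and for 4 genes with no diet call. Several genes behaved otherwise: the ICC was −0.150 for Hadhb, −0.0398 for Ehhadh, 0.0404 for Cpt1a and −0.0196 for Hacl1, and none of these passed for strain.

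**Figure D3:**
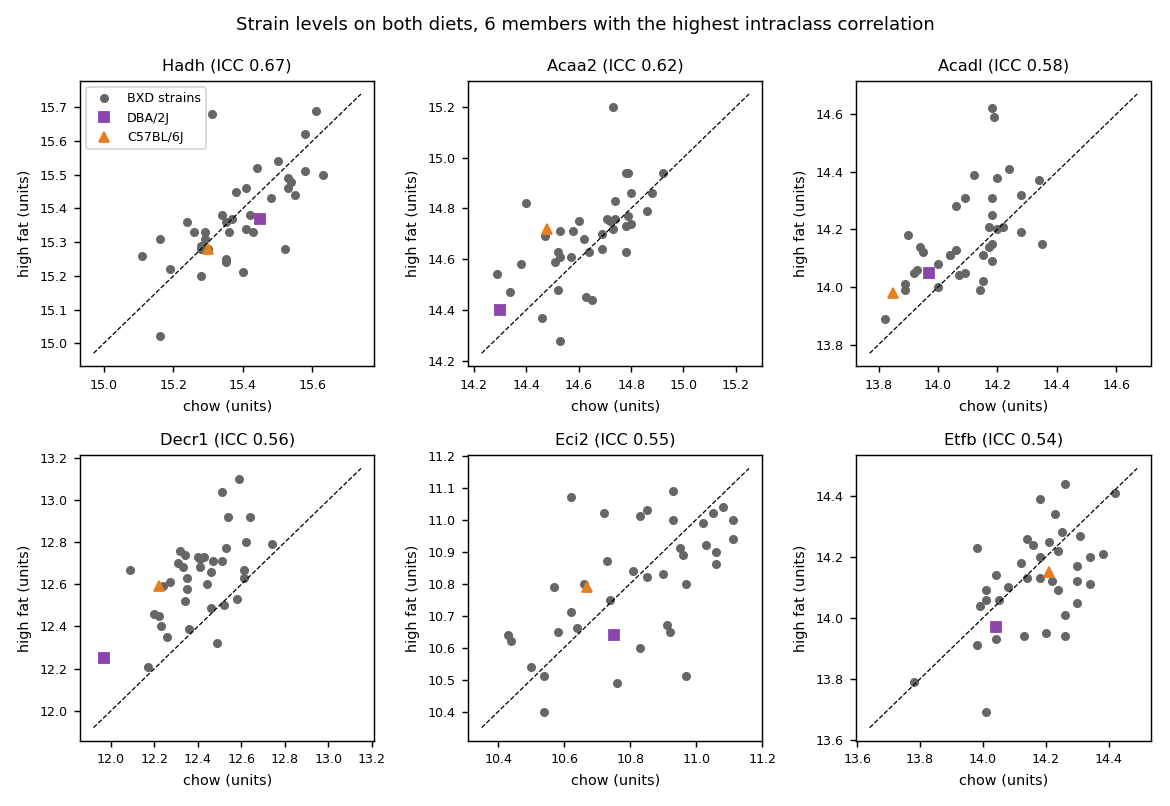
High fat level against chow level (rescaled units) of 39 strains for the 6 genes with the highest intraclass correlation, with DBA/2J as squares, C57BL/6J as triangles and a dashed line of equality. Points of Decr1 lie mostly above the line, those of Hadh on both sides of it, and DBA/2J has the lowest strain mean of Acaa2 and Decr1.

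None of the 29 genes differed between the parents, where 2.36% of all genes passed (limma, DBA/2J minus C57BL/6J, 2 pools each), and 4 had an unadjusted p under 0.05. Pecr came nearest in size, with 9.19 units on high fat and 8.85 units on chow in DBA/2J, against 8.60 and 8.61 units in C57BL/6J. This difference was 0.415 ± 0.150 units (limma adjusted p = 0.167). Decr1 had 12.25 units on high fat and 11.97 units on chow in DBA/2J, against 12.59 and 12.22 units in C57BL/6J, a difference of −0.295 ± 0.126 units (limma adjusted p = 0.277). Amacr differed by 0.279 ± 0.125 units (limma adjusted p = 0.309) and Acaa2 by −0.251 ± 0.115 units (limma adjusted p = 0.326). For 21 of the 29 genes more BXD strain means lay above both parents than below both, and for 8 the reverse held. The same count over all genes was not made, so whether this is particular to the 29 was not tested. Above both were 35 of 37 strains for Ehhadh and Acad10, 33 for Cpt1a, 31 for Acadl, 30 for Eci1 and 29 for Decr1, for which 0 lay below both. Below both were 21 strains for Decr2 (1 above), 18 for Acaa1a (4 above) and 12 for Amacr (2 above). Of these genes Acadl, Eci1, Decr1 and Amacr passed for strain. Ehhadh, Acad10, Cpt1a, Decr2 and Acaa1a did not (limma adjusted p = 0.593, 0.427, 0.501, 0.628 and 0.0938). Each parent mean rests on 2 pools, so the counts depend on the values of these pools.

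A few pools stood at the edge of the range for many genes. High fat BXD63 was the lowest high fat pool for 12 of the 29 genes, including Hadha, Hadh, Acadm, Acaa2, Decr1, Etfa, Etfb and Etfdh. It also had the highest atrial marker mean of the high fat pools, 14.18 units, and the second lowest cardiomyocyte mean, 14.72 units. High fat BXD48 was the highest high fat pool for 8 genes and had the highest cardiomyocyte mean, 15.13 units. Among chow pools, BXD71 was highest for 7 genes and again had the highest cardiomyocyte mean, 15.17 units. The part of atrial tissue in these positions was not tested.

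Pools also differed in the level of genes known to respond to fasting, and this was used to ask which of the 29 genes varied with them. Pdk4, Angptl4, Ucp3 and Acot1 are PPARα targets outside the 29, and their mean had a lowest, median and highest value of 10.15, 11.08 and 11.92 units on high fat, against 10.001, 11.23 and 11.71 units on chow. In limma 0 of the 4 passed the diet test, also at an unadjusted p under 0.05, while 45.0% of all genes passed after adjustment. BXD68 was at both ends, highest on high fat and lowest on chow. Only 1 of the 4 genes, Acot1, passed for strain (limma adjusted p = 0.0228), and their median ICC was 0.0231. Their strain means thus also carry differences between single pools. Over 39 strain means, which ran from 10.43 units in DBA/2J to 11.70 units in BXD43, 6 of the 29 genes were positively related to this mean in limma (adjusted over all genes) and 0 negatively. The background was 0.658% of all genes positive and 0.388% negative.

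Cpt1a followed the fasting mean most closely, with r = 0.813 and rho = 0.781 (limma adjusted p = 3.08e-06). Without BXD43 and DBA/2J r was 0.820, and it was 0.804 within high fat arrays, 0.908 within chow arrays and 0.910 for the diet differences. Ehhadh had r = 0.744 and rho = 0.736 (limma adjusted p = 3.53e-05), with 0.741 without those strains, 0.819 within high fat, 0.784 within chow and 0.858 for the differences. Decr1 had r = 0.662 and rho = 0.682 (limma adjusted p = 0.00229), with 0.733, 0.451, 0.532 and 0.203 in the same order. For these 3 genes the permutation p of both r and rho was 1e-05, the smallest that 100000 permutations can give. Eci1 (r = 0.580, rho = 0.592, limma adjusted p = 0.0191), Hadha (0.580, 0.632, 0.0350) and Acadl (0.544, 0.571, 0.0427) also passed. Without BXD43 and DBA/2J Eci1 had r = 0.624, Hadha 0.645 and Acadl 0.537. Over high fat arrays alone the values were 0.546, 0.487 and 0.517, and over chow arrays alone 0.459, 0.279 and 0.437. Every r given here for these 6 genes kept BXD68, and values without it were not computed. With the atrial and adipocyte marker means taken out, 6 genes again passed, but Acadl did not (limma adjusted p = 0.0559). Hadha and Acadl lost the call without BXD45, BXD48 and BXD96 (limma adjusted p = 0.0738 and 0.0999). Of the 29 genes 27 had a positive r, with a median of 0.317 and a lowest value of −0.119 for Acaa1a. The share of all genes with a positive r was not computed.

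**Figure D4:**
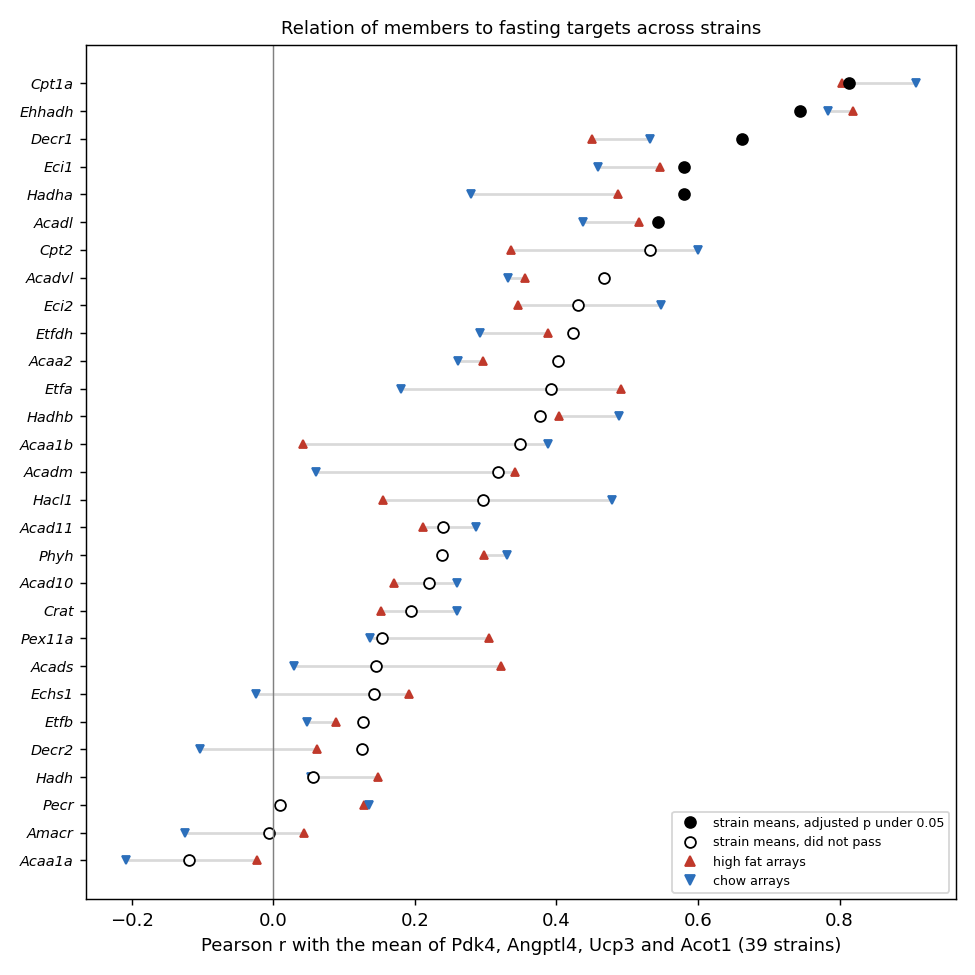
Pearson r of each of the 29 genes with the mean of Pdk4, Angptl4, Ucp3 and Acot1 over 39 strain means (circles, filled where the limma adjusted p was under 0.05), within high fat arrays (red) and within chow arrays (blue). Cpt1a at 0.813 and Ehhadh at 0.744 lie farthest right.

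Cpt1a and Ehhadh, the genes most closely related to the fasting genes, were also related to each other. Over strain means Ehhadh and Cpt1a had r = 0.727 (permutation p = 1e-05, the smallest that 100000 permutations can give, adjusted 5e-05) and rho = 0.696. Without BXD87 and DBA/2J r was 0.685, and it was 0.770 within high fat, 0.825 within chow and 0.871 for the differences. In BXD68, Cpt1a was 12.32 units on high fat and 11.59 units on chow, and Ehhadh was 9.76 units on high fat and 8.82 units on chow, the largest upward differences of each gene. In the same strain Angptl4 was 11.41 units on high fat and 8.81 units on chow. Adipoq, which fell with high fat diet, was 6.54 units on high fat and 7.11 units on chow there, the direction of the group. Zic1, higher on high fat in 36 of 39 strains, went the other way in BXD68, with its lowest difference of −0.376 units, as did Hadhb with its highest difference of 0.434 units.

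Acadl and Acadm, adjacent in chain length, had r = 0.581 over strain means (permutation p = 8e-05, adjusted 0.0002) and rho = 0.520 (permutation p = 0.00079, adjusted 0.00197). Without BXD48 and BXD71 r was 0.490, and it was 0.740 within high fat, 0.305 within chow and 0.511 for the differences. Etfb and Etfa, the partners of 1 heterodimer, had the lower r of 0.337 (permutation p = 0.0362, adjusted 0.0453), while rho of 0.285 did not pass (permutation p = 0.0789, adjusted 0.0986). Without BXD48 and BXD68 r was 0.274, and it was 0.464 within high fat, 0.333 within chow and 0.633 for the diet differences. The thiolase genes Acaa1b and Acaa1a had r = −0.296 (permutation p = 0.0672) and rho = −0.182 (0.267). Without 2 strains r was −0.124, and it was −0.236 within high fat, −0.0603 within chow and 0.0881 for the differences.

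As a description, the 406 pairs among the 29 genes had a median r of 0.273 over the 39 strain means, and 85.0% were positive. The 29 genes against all other genes had a median r of 0.0229, with 54.4% positive. Pairs within a step (65 pairs) had a median of 0.253 and pairs of different steps 0.281. The 210 pairs of genes outside the peroxisome step had a median of 0.361. The 168 pairs of a gene outside that step with a gene in it had 0.172. Decr2, although peroxisomal, was counted outside that step, with the unsaturated fat enzymes. The highest values were 0.875 for Acadm with Etfdh, 0.859 for Hadha with Etfdh and 0.817 for Etfa with Etfdh. Hadha had the highest median r with the other genes, 0.512, while Etfb had 0.101, Pecr 0.00803 and Acad10 −0.0382. These pairs share arrays, scaling and cell makeup.

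**Figure D5:**
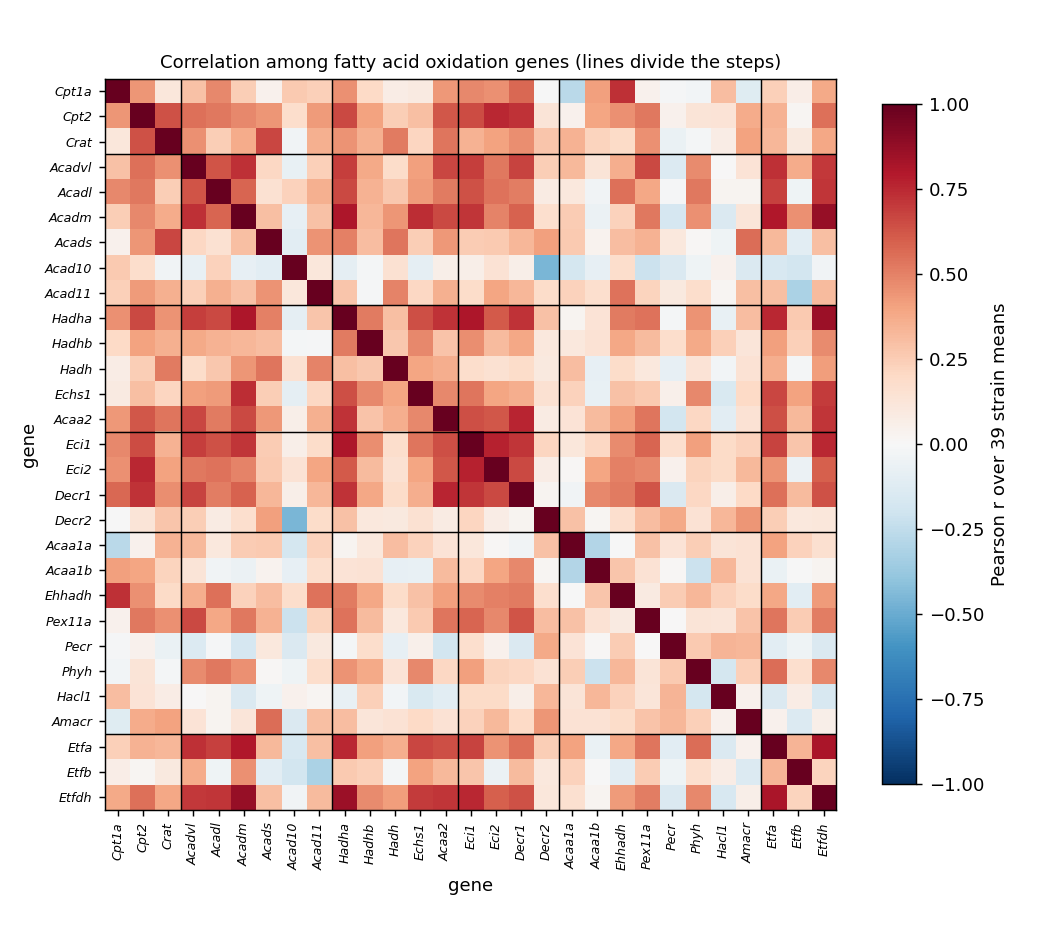
Pearson r between the 29 genes over 39 strain means, ordered by step with lines between steps. Red squares are positive, with Acadm and Etfdh at 0.875, and the rows of Acad10 and Pecr are paler or blue.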

How the data were processed

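RNA of about 5 hearts per strain and diet was pooled and hybridised to Affymetrix arrays, per the labels' protocols, and processed with Affymetrix Expression Console, per the submitters' processing notes. The deposited values are a score: by a test on the values, every array was brought to the mean 8 and the SD 2. Neither the log base of this rescaled score nor a genome build is stated in the labels. No further normalization was applied. Of 41345 probe sets, 23521 carry 1 gene symbol and 1814 several. A gene was read from its single-symbol probe set with the highest mean over 81 arrays, which gave 22180 genes. Diet was tested with limma 3.58.1 in R 4.3.3 on 78 arrays with strain as a block, strain by limma's F test, and the parents by a contrast, with Benjamini-Hochberg adjustment over all genes at 0.05. Relations used strain means of the 39 strains with 100000 permutations (scipy 1.17.1), and those to the fasting genes used limma over all genes, in place of an adjustment over the listed genes alone that was first planned. Pools of 1 strain share genotype: the median r of their deviations was 0.248 within a strain and −0.00927 between strains, and 32 of 39 pools matched their own strain best. Array intensities limit precision, and no counts exist. The genes named are all listed members and the 6 other pathway genes with the smallest p, and others are named by their list. Members and lists were chosen with earlier results of these data known. A planned pair of Cpt2 with Cpt1b was not run. Alternatives varied the block, eBayes options, weights, normalization, probe sets, strains and marker covariates. The fits were tested on simulated data.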

Additional observations from a re-analysis of the deposited data

How the results depend on the processing

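Every member call rests on small differences on 1 array platform, and depth in reads does not apply. Over the diet differences of the 13 called genes, 105 alternative values kept their side of the threshold and 13 did not. For the other genes 131 kept it, 7 passed and 6 changed sign. Leaving out each strain in turn gave 5 to 9 genes higher and 5 to 7 lower on high fat. Without the strain block, that is without the pairing of pools, 5 genes were higher and 6 lower, and Acadl (0.0544) and Amacr (0.0969) lost the call. Without BXD45, BXD48 and BXD96, 5 were higher and 5 lower. With marker covariates 3 were higher, against 7 without them. The sign changed with these covariates for Acadm (−0.00754), Eci1 (−0.000426) and Acaa1b (0.0331), without BXD45, BXD48 and BXD96 for Acadm (−0.00331) and Pex11a (0.000583), and with quantile normalization for Hadh (0.0261). None of these passed. Quantile normalization gave r = 0.177 for Etfb with Etfa (adjusted permutation p = 0.280), which no longer passed, and r = −0.380 for Acaa1b with Acaa1a (0.0288), which now did. It also removed the fasting relation of Hadha (0.310). It split all genes into 5092 higher and 4980 lower, against 5288 and 4697. The strain effect passed at 9 genes with marker covariates and at 9 without BXD45, BXD48 and BXD96, against 12. The parents gave 0 genes in each alternative. The settings without BXD45, BXD48 and BXD96, without single strains and without Hadhb were added after seeing the data. The cause of these shifts was not tested.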
